A study of Mus musculus with 6 samples.

Results

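The 33 genes described here are lymphoid priming genes, which blood progenitors transcribe before they commit to the B, T or NK cell lineages. They were listed by gene symbol, with earlier results of these data known. The rule that finds them uses no measured value, and each was taken at the locus of that name with the largest exon length in the deposited table. All 33 were found among 53445 loci. RNA-Seq was performed on LSK cells (lineage negative, Sca-1+, Kit+ bone marrow cells, a sorted fraction that holds blood stem cells and multipotent progenitors) from 3 OgaVav-Cre and 3 wildtype mice. OgaVav-Cre mice carry Oga fl/fl, in which the gene of the O-GlcNAcase is flanked by loxP sites, together with the Vav-iCre transgene, which is expressed across blood cells, stem cells included. The study calls the wildtype controls of its other assays littermates. All mice were female, about 12 weeks old and on the C57BL/6 background, and each library came from 1 mouse. LSK cells are a mixture, so in these bulk libraries fewer cells of a type and less RNA per cell cannot be told apart.

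Lymphoid priming begins in multipotent progenitors that raise the receptor Flt3 on their surface. Ikaros family proteins, E proteins and Mef2c open the lymphoid program in these cells, and Id proteins bind E proteins and hold them off DNA. Receptors of interleukin 7 then sustain the precursors, chemokine receptors bring some of them to the thymus, and Notch signals there turn on the T lineage factors. Whether loss of O-GlcNAcase alters this program in LSK cells is the question addressed by the comparison of genotypes.

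The reads listed over all loci summed to 19318056 to 27064389 per library, and a read in overlapping loci can count more than once. Levels are given as CPM (reads per 1000000 reads of the library, scaled by edgeR's TMM method) unless RPKM is named. Oga, listed under its former symbol Mgea5, had 4.61, 4.31 and 4.01 CPM across OgaVav-Cre replicates 1 to 3, against 148, 154 and 116 CPM across wildtype replicates 1 to 3, so the deletion was seen in every labelled library. The sort marker Kit was present in all libraries at 251 to 602 CPM, and Ly6a, the gene of Sca-1, at 42.3 to 218 CPM. OgaVav-Cre replicate 3 stood apart. It had the lowest Kit level and the lowest summed level of 14 long-term stem cell markers, 465 CPM against 635 to 1304 CPM in the others. It also had the highest summed level of markers of B lineage (1845 CPM against 522 to 1582), dendritic cells (3188 against 579 to 1290), T and NK cells (466 against 209 to 333), granulocytes and monocytes (3427 against 939 to 2151) and erythroid cells and megakaryocytes (3687 against 420 to 1171). The share of reads on Ighm, Igkc and Igj, which are made in quantity by antibody secreting cells, was 1.17 to 9.88% and was highest in OgaVav-Cre replicate 1, as was the sum of the 10 measured plasma cell markers (12440 CPM against 1775 to 8164 CPM). The 7 LSK surface markers summed to 1639 to 2209 CPM. No gene of the marker lists passed both cutoffs for a change between genotypes in edgeR.

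**Figure D1:**
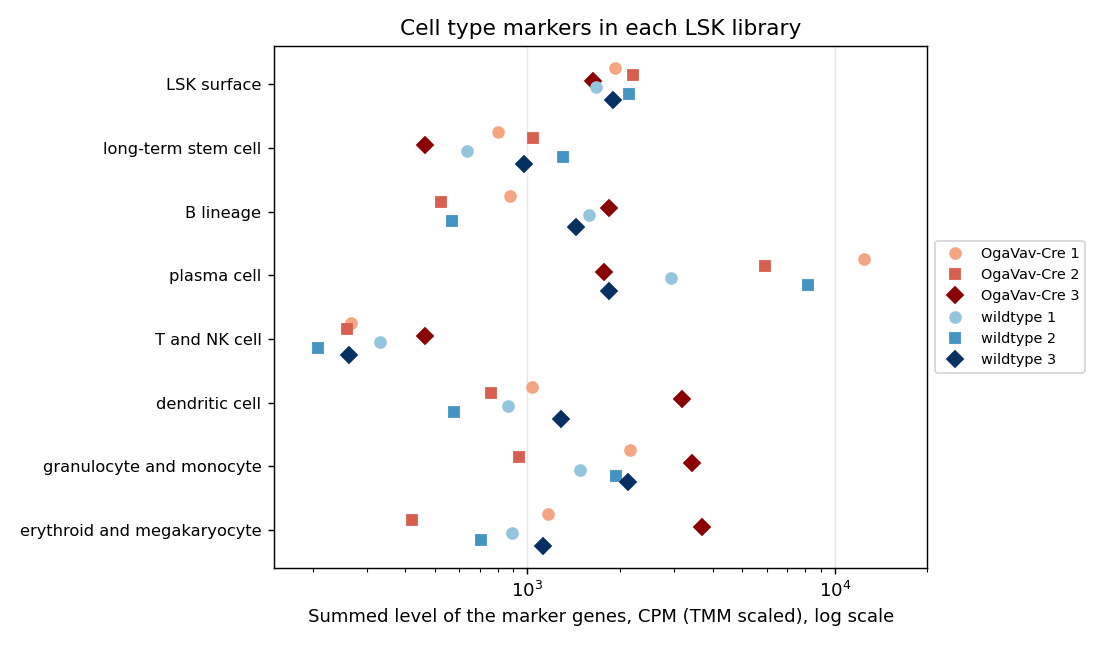
Summed CPM of the genes in each marker list (log axis), with 1 point per library, in red shades for OgaVav-Cre and blue shades for wildtype. OgaVav-Cre replicate 3 has the highest sum for 5 of the lists of mature lineages and the lowest for long-term stem cell markers, while plasma cell markers are highest in OgaVav-Cre replicate 1.

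None of the lymphoid priming genes passed the cutoffs for a change between genotypes. With edgeR's quasi-likelihood test, Benjamini-Hochberg adjustment over 22032 loci and a log2 fold change beyond 1, 0 of 33 genes were called, where 0.0318% of all loci tested were called. The smallest adjusted p from this edgeR test was 0.388, for Ikzf2. At an unadjusted p below 0.05, 2 of 33 genes (6.06%) were past the threshold, against 10.6% of all loci tested. DESeq2's Wald test also called 0 of 33 at both cutoffs, against 0.473% of 24725 loci, and Ikzf2 and Ly6d, 2 of 33, had an unadjusted p below 0.05, against 6.72% of the 36466 loci with a DESeq2 p. The median log2 fold change was 0.08 for the 33 genes and 0.0041 for all loci tested, with 18 genes above 0 and 15 below. The genes ran from -0.84 for Lef1 to 1.10 for Ccr9, and 27 of 33 lay within 0.5 of no change on the log2 scale.

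**Figure D2:**
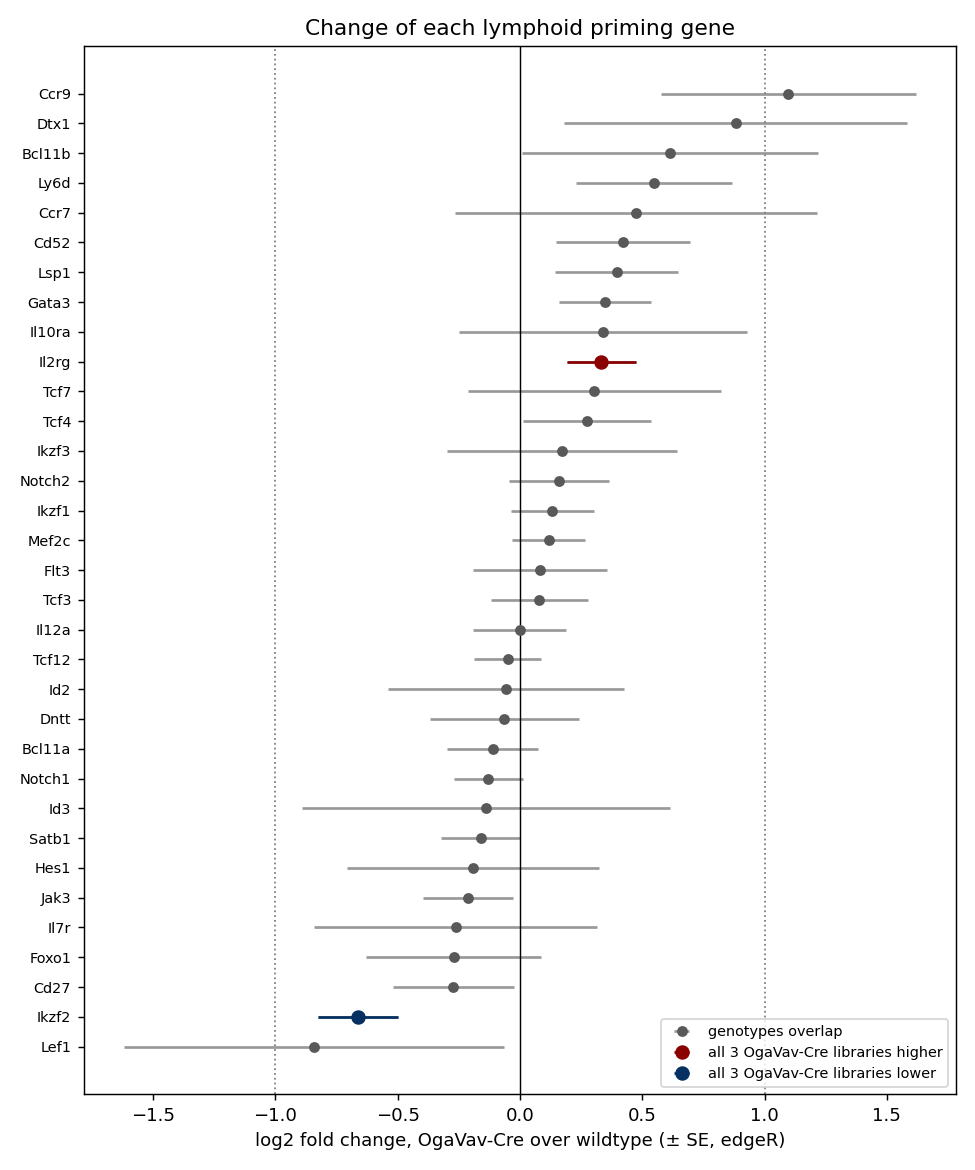
log2 fold change of OgaVav-Cre over wildtype for each of the 33 genes (points) with its standard error (bars), sorted by size, with dotted lines at -1 and 1. Ikzf2 (blue) and Il2rg (red) are the genes whose genotypes do not overlap, and the widest bars belong to Lef1, Id3 and Ccr7.

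The genotypes were separated, with every OgaVav-Cre library on the same side of every wildtype library, for 1 gene in each direction. Il2rg was higher in OgaVav-Cre cells, which is 3.03% of the genes against 7.5% of all loci tested. Ikzf2 was lower, which is 3.03% against 9.97% of all loci tested. Neither share exceeds its background.

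Ikzf2 (chr1:69577781-69732534, minus strand, mm9) encodes Helios, a zinc finger protein of the Ikaros family found in blood stem cells and in T cells. It had 67.3, 73.4 and 59.5 CPM across OgaVav-Cre replicates 1 to 3, against 83.4, 117 and 117 CPM across wildtype replicates 1 to 3. All OgaVav-Cre libraries lay below the lowest wildtype library, wildtype replicate 1. The means were 66.8 ± 6.97 (SD, n = 3) and 106 ± 19.3 (SD, n = 3). The log2 fold change was -0.66 (standard error, SE, 0.16), with an unadjusted p of 0.00401 and an adjusted p of 0.388 from edgeR's quasi-likelihood test. DESeq2's Wald test gave an adjusted p of 0.0832. Over all the alternative fits and with each library left out, the log2 fold change stayed between -0.81 and -0.58, and the unadjusted edgeR p was 0.0175 at most among the fits that left out a library.

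The other Ikaros family members had no such separation. Ikzf1, which encodes Ikaros itself and is required for lymphoid development, had 393, 377 and 472 CPM in the OgaVav-Cre replicates against 445, 313 and 375 CPM in wildtype. Its genotypes overlapped, and its log2 fold change was 0.13 (SE 0.17, adjusted p = 0.791, edgeR). Ikzf3, which encodes Aiolos and rises in committed lymphoid cells, had 63.3, 40.1 and 126 CPM against 58.2, 39.7 and 106 CPM. The third replicate of each genotype was the highest for Ikzf3, and the log2 fold change of 0.17 was smaller than its SE of 0.47.

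Among the cytokine receptors and their signalling partners, Il2rg (chrX:98459724-98463545, minus strand, mm9) encodes the common gamma chain shared by several interleukin receptors. It had 106, 94.1 and 111 CPM in the OgaVav-Cre replicates against 68.9, 88.6 and 89.4 CPM in wildtype. The lowest OgaVav-Cre library exceeded the highest wildtype library by less than the spread within either genotype. Its log2 fold change was 0.33 (SE 0.14), with an unadjusted p of 0.0473 and an adjusted p of 0.468 from edgeR. The locus is overlapped on the opposite strand by LOC100503548, listed with 319 to 608 reads, and is contained in a longer locus listed as Il2rg/Gm614. The study names the NEBNext Ultra RNA Library Prep Kit and no strand-specific step, and strand use in the counting is not given. Reads of overlapping loci therefore cannot be told apart. Jak3, the kinase that binds the common gamma chain, had 141, 135 and 103 CPM against 118, 172 and 149 CPM, with overlapping genotypes and a log2 fold change of -0.21 (SE 0.18, adjusted p = 0.680, edgeR). The Jak3 locus overlaps Insl3 on the same strand, listed with 234 to 422 reads, and a merged locus listed as Insl3/Jak3 with 2832 to 3961 reads. In OgaVav-Cre replicate 1 the merged locus had 3513 reads, where Jak3 had 3190 and Insl3 had 340. Reads were thus counted in more than 1 locus, and the exact number shared is not given.

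Flt3, the receptor tyrosine kinase that marks multipotent progenitors with lymphoid potential, had 373, 356 and 202 CPM in the OgaVav-Cre replicates against 245, 385 and 251 CPM in wildtype. OgaVav-Cre replicate 3 was the lowest of the 6 libraries and wildtype replicate 2 the highest. The means were 311 ± 94.0 and 294 ± 78.8 (SD, n = 3 each), and the log2 fold change was 0.08 (SE 0.27, adjusted p = 0.931, edgeR). Its sign turned under 8 of 15 alternatives.

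Il7r, the alpha chain of the interleukin 7 receptor on lymphoid precursors, had 54.0, 29.4 and 143 CPM in the OgaVav-Cre replicates against 140, 50.2 and 81.9 CPM in wildtype. OgaVav-Cre replicate 3 and wildtype replicate 1 were high, and the genotypes overlapped over almost the whole range. The log2 fold change was -0.26 with an SE of 0.58. Without OgaVav-Cre replicate 3 it was -1.12, with an adjusted p of 0.319 in edgeR. Il10ra, the ligand binding chain of the receptor for interleukin 10, showed the same high library at 114 CPM, while the other 5 libraries lay at 22.8 to 61.7 CPM. Its log2 fold change turned from 0.34 to -0.73 when OgaVav-Cre replicate 3 was left out. Il12a, a subunit of a secreted cytokine rather than a receptor, lay at 29.1 to 44.9 CPM with equal means of 35.5 CPM in both genotypes.

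Dntt encodes terminal deoxynucleotidyl transferase, which adds bases without a template at the joints of rearranging antigen receptor genes. It had 524, 321 and 388 CPM in the OgaVav-Cre replicates against 627, 286 and 376 CPM in wildtype. Replicate 1 was the highest library in each genotype. The means of 411 ± 103 and 429 ± 177 (SD, n = 3 each) differed by less than the spread within either genotype, with a log2 fold change of -0.06 (SE 0.31, adjusted p = 0.954, edgeR). The transcript AK041882 on the opposite strand of this locus is listed with 574 to 1328 reads.

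The chemokine receptors had the largest positive fold change of the groups, and it rested on 1 library. Ccr9 (chr9:123587214-123693448, plus strand, mm9), which guides progenitors to the thymus, had 41.4, 32.7 and 145 CPM in the OgaVav-Cre replicates against 39.4, 29.8 and 33.4 CPM in wildtype. Its log2 fold change was 1.10 (SE 0.52, unadjusted p = 0.0700, adjusted p = 0.496, edgeR), and without OgaVav-Cre replicate 3 it was 0.12. The Ccr9 locus spans a copy of Hnrnpa1, listed with 375 to 650 reads, and Lztfl1 on the opposite strand, and Fyco1 on that strand overlaps it in part. Reads of these loci cannot be told apart from those of Ccr9. In OgaVav-Cre replicate 3, Ccr9 had 3980 reads, where Hnrnpa1, Lztfl1 and Fyco1 were listed with 555, 725 and 1182. In the other libraries Ccr9 had 574 to 934 reads, where these loci were listed with 375 to 650, 369 to 703 and 742 to 1422. The part of these loci in the lower Ccr9 levels was not tested. Ccr7, which guides lymphocytes to lymph nodes and progenitors to the thymus, had 8.47, 9.10 and 50.7 CPM against 15.2, 7.63 and 26.3 CPM. Its log2 fold change of 0.47 (SE 0.74) became -0.90 without OgaVav-Cre replicate 3.

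The surface and cytoskeletal markers gave 3 positive and 1 negative fold change, with overlapping genotypes in each. Ly6d, a surface protein that marks B cell biased lymphoid progenitors, had 128, 65.8 and 158 CPM in the OgaVav-Cre replicates against 104, 70.8 and 66.2 CPM in wildtype. OgaVav-Cre replicates 1 and 3 were above every wildtype library, and replicate 2 was below them all. The log2 fold change was 0.55 (SE 0.32, adjusted p = 0.558, edgeR), and it ranged from 0.28 without OgaVav-Cre replicate 3 to 0.84 without OgaVav-Cre replicate 2. Cd52, a small anchored glycoprotein of lymphocytes, had 97.1, 56.8 and 122 CPM against 68.6, 56.4 and 81.4 CPM and a log2 fold change of 0.42 (SE 0.27). Lsp1, an actin binding protein of leukocytes, had 130, 117 and 223 CPM against 114, 106 and 137 CPM and a log2 fold change of 0.39 (SE 0.25). OgaVav-Cre replicate 3 was the highest library for Ly6d, Cd52 and Lsp1. Cd27, a receptor of the TNF receptor family carried by multipotent progenitors, ran the other way, with 102, 131 and 69.6 CPM against 95.5, 147 and 122 CPM. The locus overlaps Vamp1 on the opposite strand, listed with 878 to 2067 reads. OgaVav-Cre replicate 3 was the lowest library for Cd27, and the log2 fold change was -0.27 (SE 0.25), or -0.06 without that replicate.

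Of the Notch pathway genes, the receptors varied less between libraries than the target genes. Notch1 lay between 133 and 178 CPM in all libraries, and its log2 fold change was -0.13 (SE 0.14, adjusted p = 0.753, edgeR). A locus on the opposite strand, 0610009E02Rik, overlaps Notch1 and was listed with 389 to 652 reads. Notch2 lay between 163 and 245 CPM, with a log2 fold change of 0.16 (SE 0.20, adjusted p = 0.790, edgeR). Hes1, a repressor induced by Notch, had 4.43, 5.34 and 11.6 CPM in the OgaVav-Cre replicates against 13.5, 3.89 and 7.06 CPM in wildtype, with overlapping genotypes and a log2 fold change of -0.19 (SE 0.51). Dtx1, which encodes Deltex, a ubiquitin ligase and Notch target, had 5.50, 8.35 and 25.2 CPM against 4.55, 2.96 and 13.6 CPM. Replicate 3 was the highest in each genotype for Dtx1. Its log2 fold change was 0.88 (SE 0.70, adjusted p = 0.658, edgeR) and fell to -0.03 without OgaVav-Cre replicate 3. A second Dtx1 locus on the opposite strand, listed with 45 to 308 reads, lies inside the first. It was highest in the same library, but reads of both loci cannot be told apart, so this is not separate evidence.

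The T lineage transcription factors lay at 40.7 CPM or less, apart from Lef1. Lef1 (chr3:130813241-130927274, plus strand, mm9), a factor of Wnt signalling used by early B and T cells, had 15.3, 12.2 and 72.3 CPM in the OgaVav-Cre replicates against 95.4, 18.1 and 65.7 CPM in wildtype. The libraries fell into high and low values within each genotype, with OgaVav-Cre replicate 3 and wildtype replicates 1 and 3 at 65.7 CPM or more and the other 3 at 18.1 CPM or less. Its log2 fold change was -0.84 (SE 0.78, adjusted p = 0.701, edgeR). Without OgaVav-Cre replicate 3 it was -2.12, with an unadjusted p of 0.00910 and an adjusted p of 0.254 in edgeR. AK018038 on the opposite strand, listed with 137 to 790 reads, overlaps Lef1.

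Tcf7, the related factor that starts the T cell program after Notch signals, had 16.3, 10.8 and 40.7 CPM in the OgaVav-Cre replicates against 22.9, 9.54 and 22.5 CPM in wildtype. Bcl11b, a zinc finger protein of T cell commitment, had 3.15, 5.82 and 17.1 CPM against 7.45, 3.22 and 6.39 CPM. OgaVav-Cre replicate 3 was the highest library for both, and both fold changes turned negative without it. Gata3, a zinc finger factor of early T cells that stem cells also express, had 19.2, 18.6 and 27.03 CPM against 18.8, 16.0 and 16.2 CPM. Wildtype replicate 1 was above OgaVav-Cre replicate 2, and no other wildtype library reached an OgaVav-Cre library. The log2 fold change was 0.35 (SE 0.19, unadjusted p = 0.105, adjusted p = 0.539, edgeR).

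**Figure D3:**
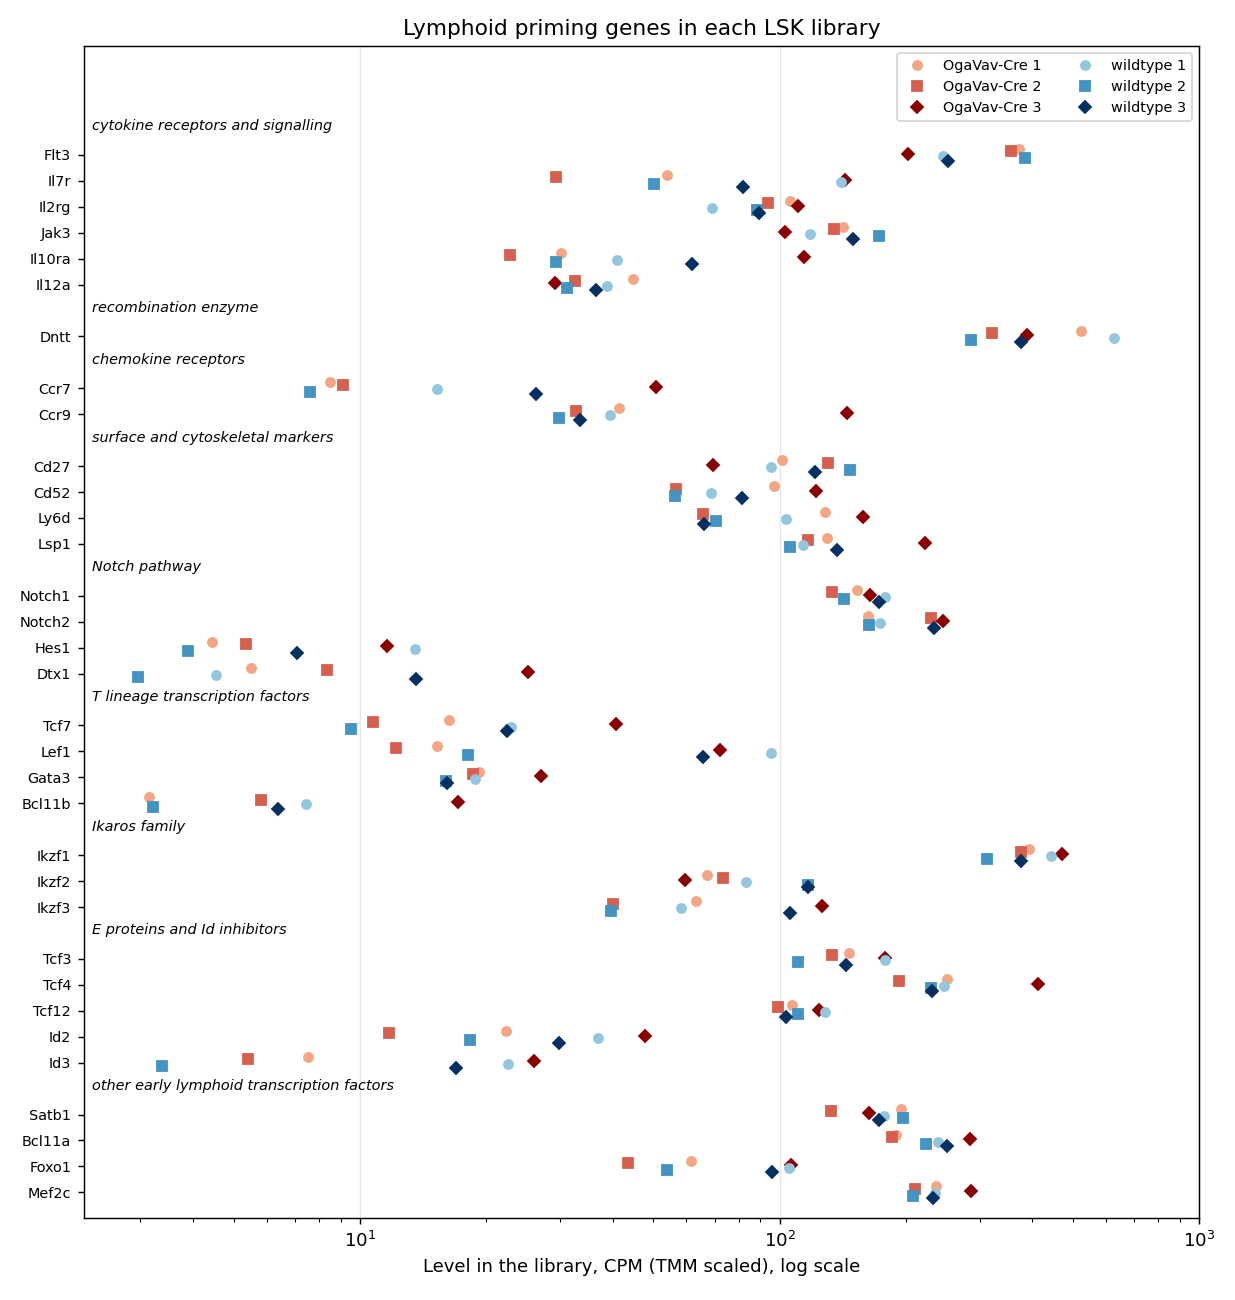
CPM of each gene in each library (log axis), grouped by role, with 1 point per library in red shades for OgaVav-Cre and blue shades for wildtype. OgaVav-Cre replicate 3 (dark red diamonds) lies at the right edge for most genes and at the left edge for Flt3, Jak3, Il12a, Cd27 and Ikzf2.

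The E proteins, basic helix-loop-helix factors required for lymphoid commitment, overlapped between genotypes. Tcf3 had 146, 134 and 179 CPM in the OgaVav-Cre replicates against 179, 111 and 144 CPM in wildtype, with a log2 fold change of 0.08 (SE 0.20). Tcf12 lay between 99.2 and 128 CPM, the narrowest relative range of the 33 genes, with a log2 fold change of -0.05 (SE 0.14). Tcf4, which plasmacytoid dendritic cells require, had 250, 193 and 413 CPM against 246, 230 and 231 CPM. The excess of Tcf4 in OgaVav-Cre replicate 3 occurred in the library with the highest summed dendritic cell markers, and without that library the log2 fold change went from 0.27 to -0.09. Whether such cells contribute to Tcf4 was not tested. The Id inhibitors varied more than the E proteins. Id2 had 22.3, 11.7 and 47.8 CPM against 37.0, 18.3 and 29.8 CPM, and Id3 had 7.54, 5.42 and 26.0 CPM against 22.6, 3.37 and 17.0 CPM. The genotypes overlapped for both, and their log2 fold changes of -0.06 (SE 0.48) and -0.14 (SE 0.75) were smaller than the error.

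The remaining early lymphoid transcription factors lay at 43.6 to 286 CPM. Satb1, an organizer of chromatin in lymphoid progenitors, had 195, 132 and 163 CPM in the OgaVav-Cre replicates against 177, 197 and 173 CPM in wildtype. Mef2c, a MADS box factor that favors lymphoid over myeloid fate, had 236, 210 and 286 CPM against 235, 208 and 232 CPM. Bcl11a, a zinc finger protein needed for B cells, had 189, 185 and 285 CPM against 238, 223 and 251 CPM. The genotypes overlapped for these 3 genes, and their log2 fold changes were -0.16, 0.12 and -0.11 with SEs of 0.16, 0.15 and 0.19. Foxo1, a forkhead factor that drives transcription of Il7r and the Rag genes, had 61.7, 43.6 and 106 CPM against 106, 53.8 and 96.0 CPM. OgaVav-Cre replicate 3 and wildtype replicates 1 and 3 were again the highest, and the log2 fold change of -0.27 (SE 0.36) became -0.69 without OgaVav-Cre replicate 3. A second Mef2c locus on the opposite strand is listed with 2180 to 4231 reads, and Bcl11a contains loci on its own strand listed with 1651 to 3698 reads, so both levels depend on how shared reads were assigned.

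In levels per length, given as the deposited RPKM, Dntt was the highest of the genes with a mean of 159 RPKM over the 6 libraries, and Ly6d followed with 124 RPKM. Their library values ran from 108 to 245 RPKM for Dntt and from 82.7 to 202 RPKM for Ly6d, so they do not differ beyond their spread. Cd52 at 58.9, Il2rg at 50.01, Flt3 at 42.3 and Cd27 at 41.2 RPKM came next, and neighbors in this order also overlapped. The lowest were Bcl11b at 0.78, Dtx1 at 1.89, Gata3 at 2.57, Id3 at 3.15 and Hes1 at 3.30 RPKM. The lowest library for Flt3, at 29.0 RPKM, was above the highest for Il7r, at 21.9 RPKM. In reads, the lowest value of any of the 33 genes in any library was 57.

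Many of the genes varied widely between libraries of the same genotype. The standard deviation within genotype of log2(CPM + 0.5) had a median of 0.43 over the 33 genes. Over all 22032 loci tested the median was 0.26, and over the 13008 loci with a mean level at or above that of the lowest of the 33 genes, 7.19 CPM, it was 0.20. The value was above 0.5 for 14 of 33 genes (42.4%) and for 8.56% of those loci. These 14 were Lef1, Id3, Ccr7, Dtx1, Il7r, Il10ra, Bcl11b, Tcf7, Ccr9, Id2, Ikzf3, Hes1, Foxo1 and Ly6d. Their highest library exceeded their lowest by up to 8.51-fold. The other 19 included Tcf12, Notch1, Il2rg, Mef2c, Satb1, Ikzf1 and Ikzf2, whose values of 0.16 to 0.22 were close to the median of the comparable loci.

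The spread had a recurring order of libraries. OgaVav-Cre replicate 3 was the highest of the 6 libraries for 22 of 33 genes, where it was the highest for 16.5% of the comparable loci. Within the wildtype genotype, replicate 2 was the lowest library for 25 of 33 genes, against 33.3% of the comparable loci. The 3 libraries with the highest summed B lineage markers were OgaVav-Cre replicate 3 and wildtype replicates 1 and 3. The same 3 libraries were the highest for 12 of 33 genes (36.4%), against 9.43% of the comparable loci. These 3 libraries also had the lowest sums of plasma cell markers, 1775 to 2938 CPM against 5938 to 12440 CPM. Their sums of LSK surface markers were the lowest too, 1639 to 1899 CPM against 1933 to 2209 CPM. As the same 3 libraries are set apart in each list, these orders cannot be told apart. The sums of the remaining marker lists were not compared with the genes in this way. Rag1, an enzyme of antigen receptor rearrangement, had 64.8, 36.0 and 110 CPM in the OgaVav-Cre replicates against 236, 58.3 and 175 CPM in wildtype. The 15 B lineage markers together summed to 522 to 1845 CPM in OgaVav-Cre and 569 to 1582 CPM in wildtype libraries, none of them was at 0 reads in any library, and 6 of the 15 were highest in OgaVav-Cre replicate 3. The part of B lineage cells, or of plasma cells, in the levels of the lymphoid priming genes was not tested.

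**Figure D4:**
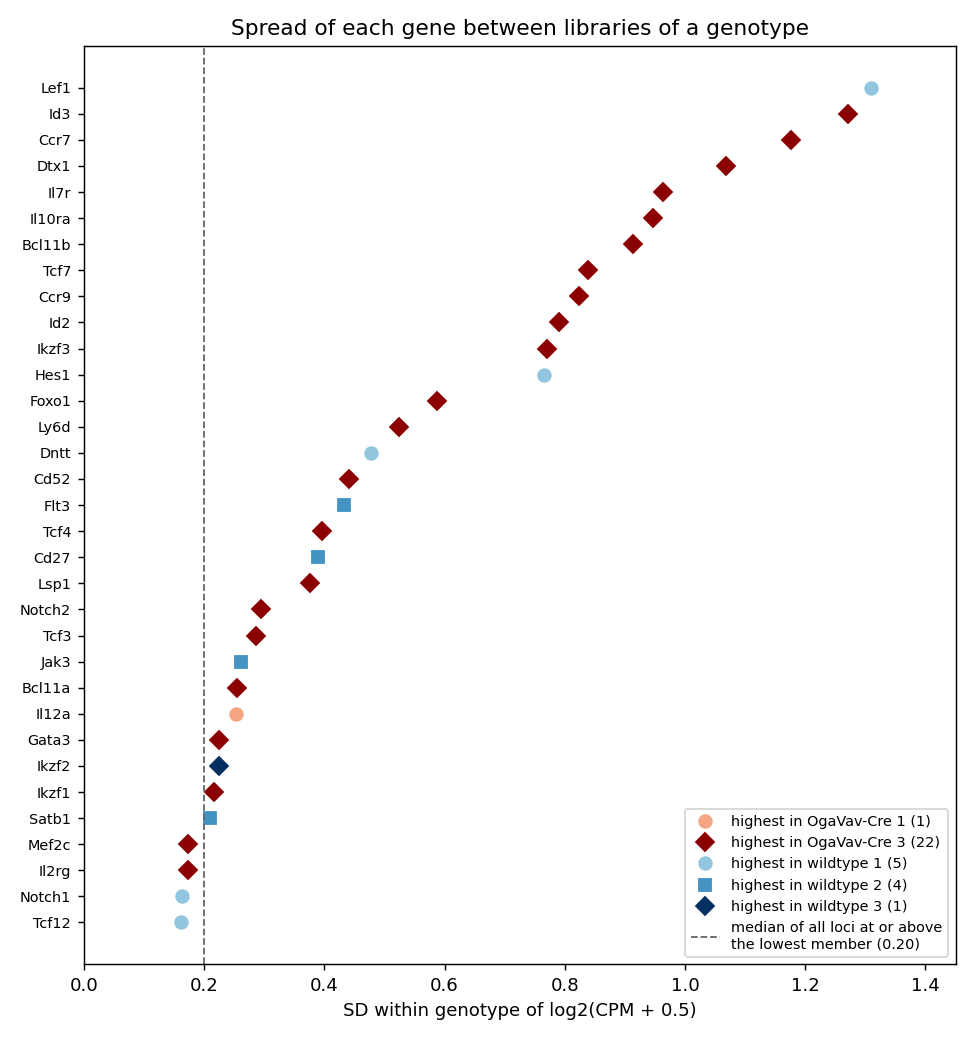
Standard deviation within genotype of log2(CPM + 0.5) for each gene, with the symbol and color of the library in which the gene was highest, and a dashed line at the median of the 13008 comparable loci (0.20). The 14 genes above 0.5 were highest in OgaVav-Cre replicate 3, apart from Lef1 and Hes1, which were highest in wildtype replicate 1.

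Because OgaVav-Cre replicate 3 stood apart, the counts were repeated without it. In edgeR, 6 of 33 genes then had an unadjusted p below 0.05, against 14.3% of all loci tested in that fit, and 0 passed both cutoffs. All 6 (Lef1, Il7r, Il10ra, Foxo1, Bcl11a and Ikzf2) were lower in OgaVav-Cre cells, with log2 fold changes from -2.12 to -0.34. A negative fold change was found for 23 of 33 genes, where 15 had one with all libraries. The library left out was the highest for 22 of 33 genes, so lower fold changes follow from its absence. The median log2 fold change in this fit was -0.088 for the 33 genes and -0.017 for all loci. The share of all loci that were lower in this fit was not counted. The smallest adjusted p among the genes was 0.254 in this edgeR fit. Without OgaVav-Cre replicate 2, in which 11 of 33 genes were lowest (16.7% of the comparable loci were), 9 of 33 fold changes were negative. In this edgeR fit 5 genes had an unadjusted p below 0.05, against 7.67% of all loci. Ccr9, Ly6d, Cd52 and Il2rg were higher in OgaVav-Cre cells, with log2 fold changes of 1.46, 0.84, 0.68 and 0.40, and Ikzf2 was lower (-0.74). In 18 of 33 genes, the fold change took the other sign when at least 1 of the 6 libraries, each left out in turn, was absent. With all libraries, 27 of 33 lay within 0.5 of no change on the log2 scale, where small shifts can turn the sign. The share of all loci whose sign turned was not counted.

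The promoters of the genes were read from the mm9 genome as the 250 bases before the 5′ end of each deposited locus. They were searched on both strands for CANNTG, the E-box bound by E proteins, for TGGGAA, a core read by Ikaros proteins and by the Notch effector Rbpj, and for CTTTG, the core of sites of Tcf7 and Lef1. CANNTG was present in 19 of 33 promoters (57.6%), against 63.0% of the 22015 promoters of loci tested. TGGGAA was present in 7 of 33 (21.2%), against 20.3% of all, and CTTTG in 15 of 33 (45.5%), against 46.0%. The shares of the genes were thus near those of all promoters for each motif. Among the 14 genes with a standard deviation above 0.5, CANNTG was present in 11, TGGGAA in 3 and CTTTG in 5, and among the other 19 in 8, 4 and 10. These sets were formed from the measured spread, and the difference between them was not tested. The promoters of Ikzf2, the gene with the smallest p, of Lef1, the gene with the widest spread, and of Il7r, a gene among those 14 with several E-boxes, are shown 5′ to 3′ on the strand of the gene, with CANNTG matches in capitals. They lie at chr1:69732535-69732784 (minus strand), chr3:130812991-130813240 (plus strand) and chr15:9459632-9459881 (minus strand) in mm9.
Ikzf2: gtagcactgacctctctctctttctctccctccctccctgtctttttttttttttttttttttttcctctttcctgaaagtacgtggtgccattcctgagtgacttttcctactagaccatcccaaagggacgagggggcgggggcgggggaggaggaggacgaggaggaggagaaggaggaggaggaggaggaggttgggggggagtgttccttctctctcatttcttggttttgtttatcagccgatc
Lef1: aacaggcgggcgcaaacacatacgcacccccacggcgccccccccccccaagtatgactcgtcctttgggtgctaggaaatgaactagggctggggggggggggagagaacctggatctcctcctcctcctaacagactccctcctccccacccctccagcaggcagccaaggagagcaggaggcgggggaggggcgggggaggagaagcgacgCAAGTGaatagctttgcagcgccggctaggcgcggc
Il7r: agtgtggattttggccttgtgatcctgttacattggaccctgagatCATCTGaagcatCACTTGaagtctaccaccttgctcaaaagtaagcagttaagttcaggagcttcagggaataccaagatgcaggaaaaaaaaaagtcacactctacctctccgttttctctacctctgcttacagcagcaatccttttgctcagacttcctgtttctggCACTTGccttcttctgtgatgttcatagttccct
Il7r held 3 E-boxes in this window, Lef1 held 1, and no CANNTG stood in that of Ikzf2. A match is a run of letters and not a measured binding site.

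None of the genes of the same pathways outside the 33 passed both cutoffs. Of 38 other Notch pathway genes, 35 were tested, 0 passed both cutoffs in edgeR, and 2 higher and 3 lower in OgaVav-Cre cells had an unadjusted p below 0.05, where 10.6% of all loci did in either direction. Adam17, a protease that cleaves Notch receptors at the cell surface, had 61.2, 69.4 and 76.5 CPM in the OgaVav-Cre replicates against 98.6, 81.7 and 99.6 CPM in wildtype, with every OgaVav-Cre library lower and an adjusted edgeR p of 0.412. Jag1, a Notch ligand, and Dtx3, a relative of Dtx1, had log2 fold changes of -1.11 and -0.69, and Jag1 was at 2.02 CPM or less in every library. The 2 higher genes, named after their values were seen, were Dll4, a Notch ligand, and Lfng, a glycosyltransferase that modifies Notch receptors. Dll4 had a log2 fold change of 1.17 (SE 0.47, adjusted p = 0.449, edgeR) without overlap and was at 2.81 CPM or less in every library. Lfng had a log2 fold change of 0.37 (SE 0.16, adjusted p = 0.468, edgeR), and the genotypes overlapped.

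Of 33 other cytokine receptor and JAK-STAT genes, 31 were tested, 0 passed both cutoffs in edgeR, and 2 had an unadjusted p below 0.05 (10.6% of all loci did), both higher in OgaVav-Cre cells. Flt3l, the gene of the ligand of Flt3, had 569, 678 and 604 CPM in the OgaVav-Cre replicates against 473, 491 and 421 CPM in wildtype. Every OgaVav-Cre library was higher for Flt3l, with a log2 fold change of 0.42 (SE 0.14, unadjusted p = 0.0155, adjusted p = 0.412, edgeR). Socs2, an inhibitor of JAK-STAT signalling, had 34.4, 28.1 and 39.3 CPM against 26.9, 21.6 and 16.6 CPM, again without overlap, at an adjusted edgeR p of 0.414. The Flt3 receptor itself, as given above, had no such separation.

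Of 36 other lymphoid transcription factors, 34 were tested, 0 passed both cutoffs in edgeR, and 2 had an unadjusted p below 0.05 (10.6% of all loci did), both lower in OgaVav-Cre cells. Myb, a factor required by stem cells and by lymphoid precursors, had 428, 405 and 353 CPM in the OgaVav-Cre replicates against 550, 509 and 497 CPM in wildtype. All OgaVav-Cre libraries lay below all wildtype libraries for Myb, with a log2 fold change of -0.39 (SE 0.13, unadjusted p = 0.0185, adjusted p = 0.416, edgeR). Foxo4, a relative of Foxo1, was at 29.6 to 30.8 CPM against 37.6 to 46.8 CPM, at an adjusted edgeR p of 0.412. The median log2 fold changes of these pathway lists were -0.04, 0.03 and -0.01, beside 0.0041 for all loci tested.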

How the data were processed

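The 3 OgaVav-Cre and 3 wildtype libraries were taken with their labelled genotype and number. Poly(A) RNA was sequenced by the authors as single-end reads, which were mapped to mm9 and totalled for each locus in Genomatix. CASAVA 1.8.2 is named in the submitters' processing notes. The aligner version, annotation release and strand use are not given in the sources used here. The deposited counts are raw reads per locus, and the deposited RPKM were made by the authors from them, scaled to locus length and sequencing depth. The authors' own fold changes and p-values in the table were not used.

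The tests of the counts used edgeR 4.0.16 under R 4.3.3 (TMM, filterByExpr, glmQLFit and glmQLFTest) and Benjamini-Hochberg adjustment over all loci tested. The cutoffs were the study's, that is 0.05 for the adjusted p and 1 for the size of the log2 fold change. The 33 genes all passed the filter on low counts. DESeq2 1.42.0 and limma 3.58.1 served as alternatives, beside other scalings, no filter, the share of reads on Ighm, Igkc and Igj as a covariate, the replicate number as a block, the RPKM with a pseudocount of 0.1 or 1, and each library left out in turn. A floor of 3 reads corresponds to 0.111 to 0.155 CPM. The fits were checked on simulated counts. The 33 genes, the pathway lists and the marker lists were chosen with earlier results of these data known. Named genes outside the 33 are Mgea5, Kit, Ly6a and, from each list, those with the smallest p or the highest level. Dll4 and Lfng were added to these after their values were seen. Overlapping loci were kept as listed. Promoter sequence was taken from the mm9 genome. Figures were drawn with matplotlib 3.10.9.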

Additional observations from a re-analysis of the deposited data

How the results depend on the processing

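No lymphoid priming gene passed both cutoffs under any of the 15 alternatives. Genes with an unadjusted p below 0.05 numbered 2 in edgeR (10.6% of all loci), 1 with library totals alone (11.8%), 1 with the RPKM at a pseudocount of 0.1 (10.8%) or 1 (10.9%), 5 with the immunoglobulin share as covariate (9.08%) and 1 to 6 with a library left out (5.39 to 14.5% of all loci; 6 without OgaVav-Cre replicate 3, 5 without OgaVav-Cre replicate 2, 1 without wildtype replicate 1 or 2). With the replicate block there were 4 (Ikzf2, Il2rg, Cd52 and Dtx1), against 12.4% of all loci. The labels number the libraries but do not pair them. Deviations from the genotype means of same-numbered libraries 1, 2 and 3 correlated at -0.081, 0.26 and 0.32. The correlations of numbers 2 and 3 were the highest of all pairs across genotypes, and that of number 1 was not. With 3 libraries per genotype, these values cannot show whether the numbers pair the libraries. The block changed no call among the 33 genes at both cutoffs. On the RPKM, Satb1 joined Ikzf2 and Il2rg as a gene without overlap, and it was lower. Loci past both cutoffs numbered 7 in edgeR, 6 with the replicate block, 21 without the low-count filter, 117 in DESeq2, 4 with the RPKM at a pseudocount of 1, and 3 to 9 with a library left out (3 without OgaVav-Cre replicate 1 or 2, 4 without wildtype replicate 1 or 3). The causes of these shifts were not tested.

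The sign of the log2 fold change was kept in 446 of 495 values, and the same share over all loci was not counted. It turned with library totals alone for Flt3 (-0.045) and Tcf3 (-0.038), a scaling that moved the median of all loci to -0.11. It turned with the immunoglobulin share for Flt3 (-0.14), Il7r (0.022), Hes1 (0.15), Id2 (0.18) and Id3 (0.39), and with the RPKM at pseudocounts of 0.1 and 1 for Flt3 (-0.0075 and -0.0068) and Il10ra (-0.041 and -0.019). For Il12a it turned with RLE scaling (0.012), no filter (0.0037) and DESeq2 (0.012). With a library left out it ran for Flt3 from -0.075 to 0.33, Il7r from -1.12 to 0.20, Il10ra from -0.73 to 0.72, Il12a from -0.20 to 0.13, Dntt from -0.28 to 0.32, Ccr7 from -0.90 to 0.99, Hes1 from -0.74 to 0.38, Dtx1 from -0.026 to 1.79, Tcf7 from -0.44 to 0.65, Bcl11b from -0.34 to 1.02, Ikzf3 from -0.39 to 0.65, Tcf3 from -0.071 to 0.26, Tcf4 from -0.088 to 0.50, Tcf12 from -0.14 to 0.043, Id2 from -0.74 to 0.31, Id3 from -1.14 to 0.35, Bcl11a from -0.34 to 0.0025 and Mef2c from -0.010 to 0.22. The causes were not tested. All 33 genes had 57 reads or more in every library, and with 3 libraries per genotype the tests had 4 residual degrees of freedom.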
